A study of Homo sapiens with 4 samples.

Results

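Genes that anthracyclines act on, or that pump out or reduce these drugs, were examined in ATAC-seq data from K562, an established cell line grown from human chronic myelogenous leukaemia. ATAC-seq marks open DNA by how readily a transposase cuts it and adds adapters. The 7 genes were TOP2A and TOP2B (drug targets), ABCB1, ABCC1 and ABCG2 (efflux pumps) and CBR1 and CBR3 (carbonyl reductases). A region was counted for a gene when at least 1 bp of it overlapped the gene's GRCh37 span extended by 10 kb on each side. This gave 32 regions of 100205 regions listed for any drug.

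The groups were untreated K562 cells and K562 cells exposed for 4 h to 10 µM doxorubicin (Doxo), to its N,N-dimethyl form at 10 µM (diMe-Doxo) or to 20 µM aclarubicin (Acla). The dimethylated drug differs from doxorubicin by methyl groups on the amine of its sugar. Per the labels each group is 1 GEO sample, and the deposited lists hold 2 libraries per group, with the same 2 control libraries in every list. Nothing in the labels ties the paired libraries to separate cultures, so p-values measure only the spread between these libraries, which may be technical. The lists hold gained regions only, with deposited p-values up to 0.05 and log2 folds of treated over control from 1.5 upward, so a gene without a listed region may still have changed. Lists of gained regions do not allow a check of the K562 label against marker genes. They give no signal for a drug at a region missing from its list. FDR below is the authors' false discovery rate for treated against control.

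Type II topoisomerases pass one DNA duplex through a break in another. TOP2A serves dividing cells and TOP2B is present in dividing and resting cells. Doxorubicin traps both enzymes on cut DNA, while aclarubicin blocks them without trapping. ABCB1 (P-glycoprotein), ABCC1 (MRP1) and ABCG2 (BCRP) are ATP-driven pumps that export drugs, and raised ABCB1 is a classic cause of anthracycline resistance in leukaemia lines. CBR1 and CBR3 reduce the side-chain ketone of doxorubicin to the alcohol doxorubicinol, a product linked to cardiac toxicity. The lists measure DNA accessibility, not the RNA or protein of these genes.

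The starts of TOP2A, CBR1 and ABCB1 are shown first because no gained region was listed within 1 kb of the start of any of these spans, and because ABCB1 has a second, downstream start. The sequences are from RefSeq (GRCh38.p14), run 5′ to 3′ on the gene's strand over a window of 300 bases that spans the start, and 5 of the 7 genes had an entry. Capitals mark the CCAAT box (CCAAT, or ATTGG on the other strand) and the GC box (GGGCGG, or CCGCCC on the other strand). These 2 motifs share no overlap in the windows printed. Of 35116 promoters of this length, 34.6% held a CCAAT box and 45.0% a GC box.
TOP2A, chr17:40417847-40418146, minus strand: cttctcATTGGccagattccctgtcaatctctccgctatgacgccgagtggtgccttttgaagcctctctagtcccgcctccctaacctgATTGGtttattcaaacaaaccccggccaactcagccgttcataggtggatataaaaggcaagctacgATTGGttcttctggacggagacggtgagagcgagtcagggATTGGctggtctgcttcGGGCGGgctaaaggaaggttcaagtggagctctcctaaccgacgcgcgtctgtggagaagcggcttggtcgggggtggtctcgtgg
CBR1, chr21:36069774-36070073, plus strand: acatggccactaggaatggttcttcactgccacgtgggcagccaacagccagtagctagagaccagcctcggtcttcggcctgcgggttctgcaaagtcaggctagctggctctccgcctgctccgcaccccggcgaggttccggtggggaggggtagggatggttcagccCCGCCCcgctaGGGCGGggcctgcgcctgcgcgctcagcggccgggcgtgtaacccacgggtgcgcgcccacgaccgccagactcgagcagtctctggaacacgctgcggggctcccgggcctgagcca
ABCB1 upstream start, chr7:87713246-87713545, minus strand: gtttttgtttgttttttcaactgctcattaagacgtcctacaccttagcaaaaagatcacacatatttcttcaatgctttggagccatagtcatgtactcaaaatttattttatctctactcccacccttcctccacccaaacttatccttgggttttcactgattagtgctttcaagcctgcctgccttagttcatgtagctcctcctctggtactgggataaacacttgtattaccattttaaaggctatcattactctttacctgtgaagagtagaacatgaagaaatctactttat
ABCB1 downstream start, chr7:87600835-87601134, minus strand: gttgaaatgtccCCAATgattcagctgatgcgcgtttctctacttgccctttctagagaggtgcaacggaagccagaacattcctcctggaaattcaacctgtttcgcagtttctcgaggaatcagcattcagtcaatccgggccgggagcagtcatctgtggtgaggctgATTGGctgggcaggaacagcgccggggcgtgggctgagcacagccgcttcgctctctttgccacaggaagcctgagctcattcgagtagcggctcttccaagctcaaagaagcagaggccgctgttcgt

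The TOP2A window held 4 CCAAT boxes, all in the reverse orientation, and 1 GC box. The CBR1 window held 2 GC boxes and 27 CpG pairs, with 69.3% G and C. The 2 ABCB1 starts differed in composition, with 37.7% G and C and 1 CpG at the upstream start and 55.3% and 16 CpG at the downstream start, which held 2 CCAAT boxes. The median over all promoters was 58.7% G and C and 14 CpG. A motif match describes the letters only.

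Gained regions lay mostly at 2 of the 3 pumps. ABCB1 held 16 of the 32 regions, ABCC1 held 13, TOP2B held 2 and CBR3 held 1. No region was listed at TOP2A, ABCG2 or CBR1 for any drug. The extended spans differ in length: 230 kb at ABCB1, 214 kb at ABCC1 and 162 kb at ABCG2, but 51 kb at TOP2A, 32 kb at CBR3 and 24 kb at CBR1. The genome held 2.26 Doxo regions per 100 kb, so an absence from the shortest spans says little about those genes. Doxo had 24 of the 32 regions (75.0%), Acla 16 (50%) and diMe-Doxo 13 (40.6%). Among all listed regions the Doxo share was 66.6%, the Acla share 61.2% and the diMe-Doxo share 52.7%. Doxo alone accounted for 14 of the 32 (43.8%) beside 29.5% of all regions, and 8 of the 32 (25.0%) were listed for all 3 drugs beside 28.7% of all regions. With 32 regions at 4 genes these shares are a description, and neighbouring regions of 1 gene are not independent.

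**Figure D1:**
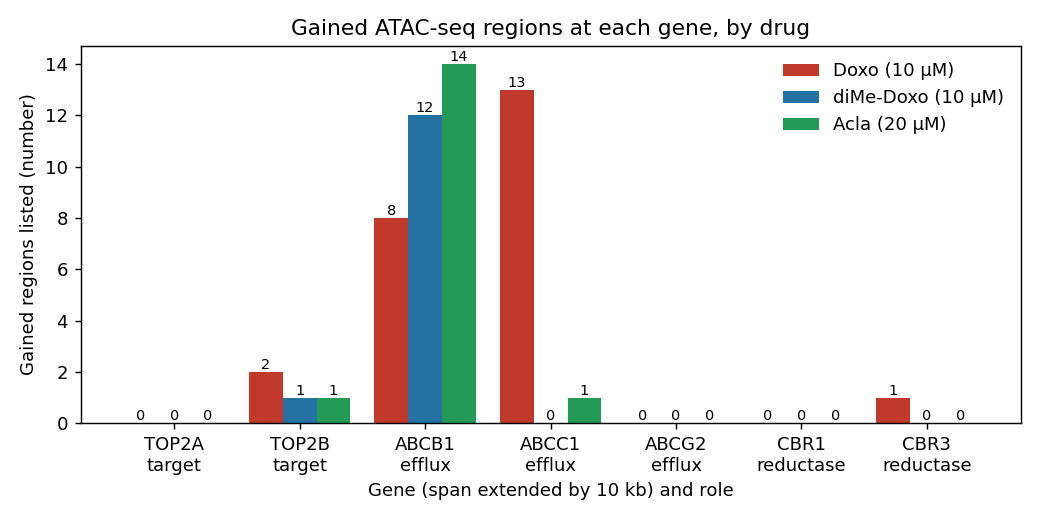
Number of gained regions (y axis) whose coordinates overlap each gene span extended by 10 kb (x axis, with the role of the gene), for Doxo, diMe-Doxo and Acla. ABCB1 carries 8, 12 and 14 regions, ABCC1 carries 13, 0 and 1, and TOP2A, ABCG2 and CBR1 carry 0 with each drug. The extended spans run from 24 kb (CBR1) to 230 kb (ABCB1), and the counts are not adjusted for length.

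Most of the 32 regions had few control reads. No control peak had been called by the authors at 29 of them, and 14 had 1 read in each control library. This is the lowest value a control has in the lists, and it may be a floor that also stands for fewer reads. Folds at the 14 regions depend on that low value. The median of each control library was also 1 read in every list, so few control reads are not particular to these genes. The share of all regions without a control peak was not counted. Reads per listed region differed between the lists, over sets of regions that are not the same, with a median of 38 and 41 reads in the Doxo libraries, 61 and 51 in the diMe-Doxo libraries and 92 and 73 in the Acla libraries. Total sequencing depth is unknown, and its part in the number of regions per list was not tested. The authors' deposited table gave a median log2 fold of 3.08 at these regions in each of the 3 lists. Over the whole lists it was 2.95 (Doxo), 2.52 (diMe-Doxo) and 2.62 (Acla). At every listed gene region both treated libraries had more reads than both controls. Listing itself required a gain over control, so this gives no separate support, here or at the genes below. Reads are unscaled unless called scaled. A read weighs differently in each library, so unscaled reads do not compare the drugs with each other.

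TOP2A, the isoform tied to cell division and the main target of doxorubicin, had no listed region. Its span on chromosome 17 at 38.544-38.575 Mb was free of gained regions to at least 10 kb on either side. The nearest Acla region was 11.9 kb away (38586880-38587427, authors' log2 fold 2.19, FDR 0.0431). The nearest Doxo region was 17.5 kb away (38526159-38526527, 2.65, FDR 0.0521) and the nearest diMe-Doxo region 54.8 kb away (38487150-38489192, 2.01, FDR 0.0728). The 500 kb on each side of the extended span held 34 Doxo, 10 diMe-Doxo and 15 Acla regions, so the neighbourhood was not free of them. Its Doxo density, 3.4 regions per 100 kb, stood beside 2.26 over the genome.

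TOP2B, the isoform also present in resting cells, had 1 region inside the gene and 1 upstream of it. The region inside, on chromosome 3 at 25652555-25653267 and 53.7 to 54.4 kb downstream of the start, was listed for Doxo only. It had 8 and 20 reads with Doxo and 1 in each control (authors' log2 fold 2.81, FDR 0.043), so both treated libraries were above the controls but differed from each other. The upstream region, at 25715249-25716657, lay 8.2 to 9.7 kb before the start and was listed for all 3 drugs.

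Unscaled reads at the upstream TOP2B region were 81 and 87 with Doxo, 169 and 139 with its dimethyl form and 155 and 127 with Acla, against 1 and 6 in the controls. Scaled to the controls (scaling given below), Doxo had 40.7 and 43.3 and diMe-Doxo 34.2 and 28.9. No treated library approached the control range. The authors' log2 folds were 3.61, 3.26 and 2.61 (FDR 0.000622, 0.000487 and 0.0066). The 500 kb around TOP2B on each side held 23 Doxo, 47 diMe-Doxo and 57 Acla regions; around TOP2A the Doxo regions were the more numerous. RARB adjoins TOP2B at its far end in the RefSeq table, and the upstream region lies at the other end.

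ABCB1, the P-glycoprotein gene on the minus strand of chromosome 7, had gained regions with every drug and the most with Acla. Of 16 regions over the extended span (87.133-87.343 Mb before extension), Doxo had 8, diMe-Doxo 12 and Acla 14. All 3 drugs shared 7 of them, diMe-Doxo and Acla shared 3 that were not listed for Doxo, and Doxo and Acla shared 1. Acla alone had 3, diMe-Doxo alone had 2 and Doxo alone had none. The authors had called a peak in both treated libraries at 3 of the 8 Doxo regions. For diMe-Doxo this held at 7 of 12 and for Acla at 12 of 14. The shares over the whole lists were not counted. Per 100 kb the gene had 3.48 Doxo, 5.22 diMe-Doxo and 6.09 Acla regions. The 500 kb on each side had 2.0, 1.9 and 1.9, and chromosome 7 as a whole had 3.04, 2.45 and 2.64. The Acla dose differed, so its counts are given side by side with the others. Under stricter limits (FDR up to 0.01, log2 fold from 2), 2 Doxo, 9 diMe-Doxo and 10 Acla regions were left at ABCB1.

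**Figure D2:**
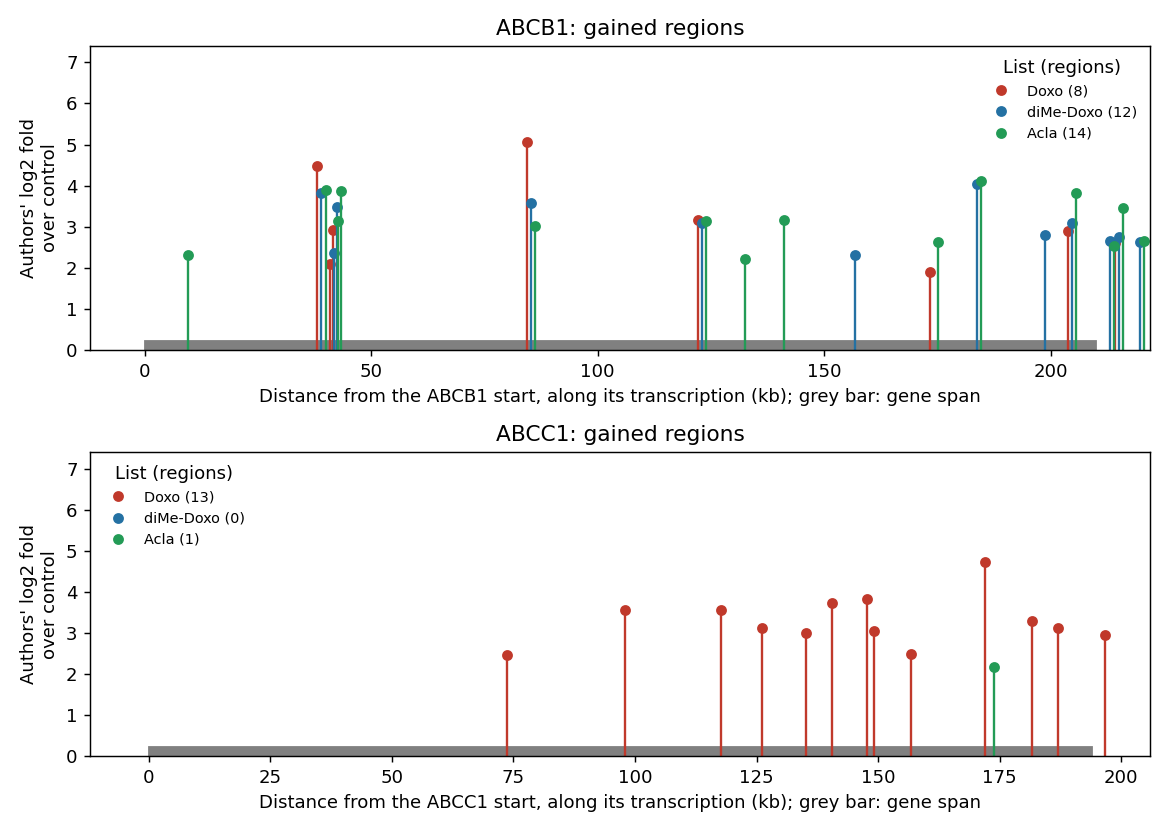
Authors' log2 fold over control (y axis) of each gained region against its distance from the gene start in kb (x axis) for ABCB1 and ABCC1, coloured by list, with the markers of the 3 lists shifted slightly sideways to keep them apart. The ABCB1 regions nearest the start are at 38.4 kb for Doxo and diMe-Doxo and at 8.5 kb for Acla, and the 13 ABCC1 regions are Doxo regions that begin 74.4 kb into the gene.

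The leading ABCB1 region in the Doxo list was already open in untreated cells. It spans 2124 bp at 87256745-87258869, 84.1 to 86.3 kb inside the gene from the upstream start, and the authors had called a peak there in both control libraries. The Doxo libraries had 530 and 551 reads, the diMe-Doxo libraries 519 and 437, the Acla libraries 472 and 448, and the controls 10 and 6. Every treated library was far above the controls. The authors' log2 folds were 5.07 (FDR 9.07e-09), 3.58 (FDR 2.96e-06) and 3.01 (FDR 0.000117). RUNDC3B, a neighbouring gene, starts inside ABCB1, 84.9 kb from the ABCB1 upstream start on GRCh38.p14. That distance falls within the 84.1 to 86.3 kb of this region, so the region cannot be assigned to either gene. The position of RUNDC3B on GRCh37 was not measured here.

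The next ABCB1 region shared by all 3 drugs, at 87303290-87304564, lay 38.4 to 39.7 kb from the upstream start, and neither control had a peak there. Doxo gave 144 and 173 reads there, diMe-Doxo 282 and 236, Acla 421 and 352, and the controls 6 and 1 (authors' log2 folds 4.48, 3.83 and 3.90). A pair of narrow regions stood close by. At 87300346-87300766 Doxo gave 12 and 18 reads, diMe-Doxo 53 and 57 and Acla 115 and 88, against 1 in each control. At 87300933-87301612 they were 16 and 26, 62 and 57, and 177 and 120, against 1 and 4. No peak had been called in either Doxo library at either region, nor in either diMe-Doxo library at the second. The Doxo FDR was 0.027 at the first and 0.07 at the second. In both narrow regions the authors' log2 fold was lowest with Doxo (2.91 and 2.09) and highest with Acla (3.86 and 3.15). The folds at the region that led the Doxo list had the reverse order. Each list has its own library factors and the Acla dose differed, so these orders are a description only. Doxo against diMe-Doxo passed at neither narrow region (edgeR adjusted p 0.362 and 0.776 with the authors' factors).

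The other 3 regions shared by all drugs lay farther from the upstream start. The region at 87219473-87220483 had 8 and 28 Doxo reads, 43 and 41 diMe-Doxo reads and 78 and 46 Acla reads over 1 in each control (log2 folds 3.17, 3.10 and 3.14). The ratio between the Doxo libraries was larger there than in the other pairs. A peak had been called there in 1 Doxo library, 1 diMe-Doxo library and neither Acla library. The region at 87137862-87138836 had 24 and 20, 49 and 71, and 162 and 126 reads over 1 and 2 (2.89, 3.08 and 3.82). The region at 87127363-87128554, just past the 3′ end of the span, had 15 and 34, 83 and 55, and 194 and 124 over 3 and 1 (2.60, 2.75 and 3.45). At all 3 the control libraries stayed below every treated library.

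Among ABCB1 regions missing from the Doxo list, the highest authors' fold belonged to 87158668-87159772. Here diMe-Doxo gave 91 and 70 reads and Acla 142 and 101, over 1 in each control (log2 folds 4.04 and 4.12, FDR 0.000191 and 0.000179). These are the highest ABCB1 folds in the diMe-Doxo and Acla lists. The regions at 87143919-87144697 and 87185889-87186372 were listed for diMe-Doxo alone (2.80 and 2.32). Acla alone had 87202495-87203159, 87210937-87211951 and 87334057-87334525 (3.16, 2.21 and 2.30). The last of these lay 8.5 to 8.9 kb inside the gene and was the region nearest the upstream start. In GRCh38.p14 the downstream start lies 112.4 kb from the upstream one, and no listed region lay at that distance on GRCh37.

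**Figure D3:**
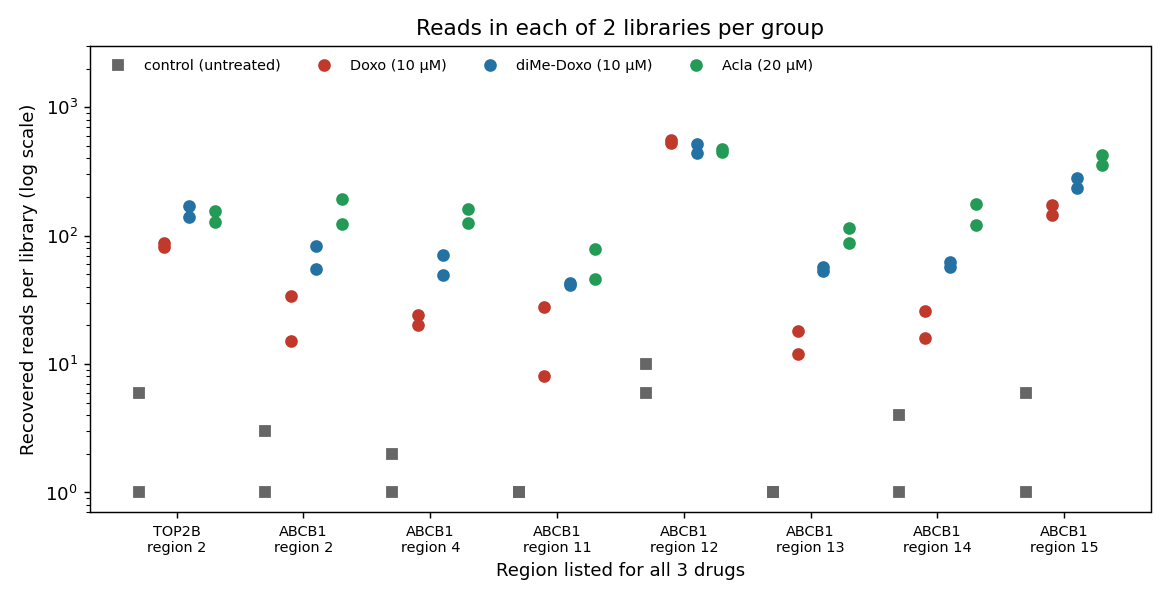
Recovered reads in each library (y axis, log scale) at the 8 gene regions listed for all 3 drugs (x axis), with 2 libraries per group as separate points. The control libraries hold 1 to 10 reads and lie below every treated library. Reads are unscaled and a read weighs differently in each library, so heights do not compare the drugs. Unscaled reads are of like size with the 3 drugs only at the ABCB1 region with 10 and 6 control reads. Scaled to the controls, that region had 266.5 and 274.4 with Doxo and 104.9 and 91.0 with diMe-Doxo.

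Doxo and diMe-Doxo, given at the same dose and time, were compared at the gene regions present in both lists. edgeR's quasi-likelihood test on recovered reads, adjusted by Benjamini-Hochberg over all 33140 regions in both lists, called 2 of 8 gene regions higher with Doxo and 0 lower. The test with the authors' library factors called 28.9% of all regions higher and 2.72% lower. With TMM in place of the authors' factors, 1 of the 8 was called higher and 0 lower, beside 23.6% and 10.6% of all regions. At an unadjusted p under 0.05, 2 of the 8 passed with the authors' factors, both higher with Doxo. With TMM 2 also passed, but 1 was higher (87256745-87258869) and 1, another region, lower with Doxo (87300346-87300766), and with DESeq2 1 passed. The counts among the 8 are near or below the background and say nothing particular about these genes.

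The region at 87256745-87258869 in the ABCB1 span, which cannot be assigned to ABCB1 or RUNDC3B, was higher with Doxo under both scalings. On the scale of the controls, a Doxo read counted as 0.503 and 0.498 control reads and a diMe-Doxo read as 0.202 and 0.208. The region then had 266.5 and 274.4 with Doxo and 104.9 and 91.0 with diMe-Doxo, with no overlap. The log2 difference was 1.47 (SE 0.20, 95% interval 1.07 to 1.86, edgeR adjusted p 4.80e-12), and 1.14 with TMM (edgeR adjusted p 3.28e-09). Unscaled reads were of like size with both drugs, so the size of this difference rests on the library factors.

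At 87303290-87304564 the scaled values were 72.4 and 86.2 with Doxo and 57.0 and 49.2 with diMe-Doxo. The log2 difference was 0.58 (SE 0.22, 95% interval 0.15 to 1.01, edgeR adjusted p 0.0274), and 0.25 with TMM (edgeR adjusted p 0.157), where the call ended. The call also ended without Doxo library 1 (adjusted p 0.115), without Doxo library 2 (0.383) and without diMe-Doxo library 2 (0.0990), all in edgeR.

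The other 6 regions did not pass the test, and their intervals leave room for differences in either direction. The TOP2B upstream region had a log2 difference of 0.41 (95% interval -0.08 to 0.90, edgeR adjusted p 0.225). The lowest value was -0.59 at 87300346-87300766 in ABCB1 (-1.46 to 0.28, edgeR adjusted p 0.362), which TMM moved to -0.93 (-1.75 to -0.11, edgeR adjusted p 0.0762). The remaining 4 ABCB1 regions lay between -0.22 and 0.06, with intervals reaching from -1.02 to 0.94. TMM moved the median over all regions from 0.28 to -0.05 and the median of the 8 from -0.05 to -0.40.

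**Figure D4:**
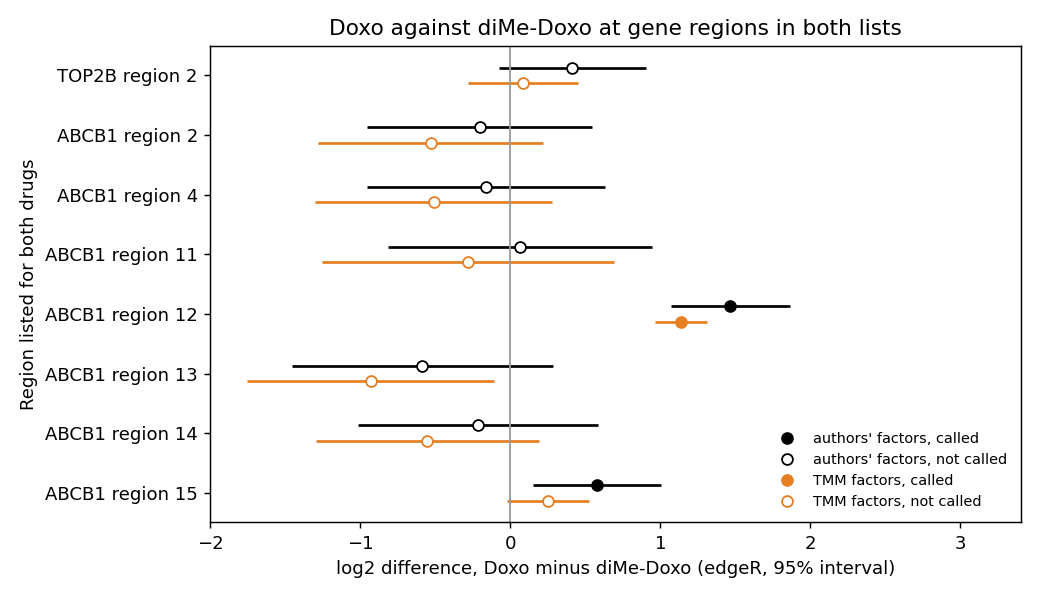
Log2 difference between Doxo and diMe-Doxo (x axis) with its 95% interval at the 8 gene regions in both lists (y axis), with the authors' library factors or TMM, filled where the edgeR adjusted p is at most 0.05. ABCB1 region 12, at 87256745-87258869, lies at 1.47 and 1.14 with both intervals above 0, and ABCB1 region 15, at 87303290-87304564, is called with the authors' factors only.

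ABCC1, the MRP1 gene on the plus strand of chromosome 16, had nearly all of its regions listed for Doxo alone, a pattern that no ABCB1 region had. Of 13 regions over the extended span (16.043-16.237 Mb before extension), all 13 were in the Doxo list, 1 was also in the Acla list and 0 were in the diMe-Doxo list. Doxo alone thus had 12 of 13, beside 46.7% of regions over chromosome 16 and 66.7% of the 12 regions in the 500 kb on each side. Per 100 kb the gene had 6.07 Doxo regions, the surrounding 500 kb on each side had 1.2, chromosome 16 had 2.75 and the genome 2.26. The nearest diMe-Doxo region was 26.2 kb past the end of the span, at 16263246-16263816 (authors' log2 fold 2.30, FDR 0.0617). No difference between drugs could be tested at regions listed for 1 drug only.

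The ABCC1 regions lay in the later part of the gene. The first was 74.4 kb and the last 198.1 kb from the start, the last being past the end of the span on the side of ABCC6, a related transporter gene. No gained region was listed within 1 kb of the ABCC1 start. They were narrow, 268 to 1149 bp wide with a median of 590 bp, beside a median of 803 bp in the whole Doxo list. No control peak had been called at any of the 13, and the share over the whole Doxo list was not counted. A peak had been called in both Doxo libraries at 9 of the 13. Doxo reads ran from 8 to 79 per library and control reads from 1 to 7. The authors' log2 folds ran from 2.46 to 4.72 with a median of 3.13.

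The highest fold at ABCC1 was at 16215469-16216253, 172.5 kb from the start, with 59 and 46 Doxo reads over 1 in each control (authors' log2 fold 4.72, FDR 6.20e-05). It was also the region shared with Acla, which had 24 and 39 reads there (log2 fold 2.18, FDR 0.0836). The region at 16183938-16185087 had 77 and 79 Doxo reads over 1 and 5 (3.72, FDR 0.000363), the closest agreement between the Doxo libraries among these 3. The region at 16191409-16192045 had 25 and 60 over 1 and 2 (3.83, FDR 0.00178), with Doxo library 2 well above library 1. Both treated libraries exceeded both controls at each.

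ABCG2, the BCRP pump on chromosome 4 (span 89.011-89.153 Mb), had no listed region in an extended span of 162 kb. The nearest Doxo region lay 12 kb away at 89165005-89166634 (authors' log2 fold 2.06, FDR 0.0851). The nearest diMe-Doxo and Acla regions were 123.3 and 151.6 kb away, at 88886627-88887741 and 88858684-88859397. The 500 kb on each side held 15 Doxo, 5 diMe-Doxo and 6 Acla regions. The pump genes thus held 16 (ABCB1), 13 (ABCC1) and 0 (ABCG2) listed regions.

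The carbonyl reductases lie close together on chromosome 21 and had 1 listed region between them. CBR1 (37.442-37.446 Mb) had none, and the nearest Doxo region was 23.9 kb away, at 37417527-37418120 (authors' log2 fold 4.46, FDR 0.000154). The CBR3 region, at 37507163-37508291, began 0.2 kb after the start of the span, and it was the only gained region within 1 kb of the start of any of the 7 genes. It was listed for Doxo alone.

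At the CBR3 start, reads were 49 and 75 with Doxo against 1 and 14 in the controls, and the authors had called a peak in both control libraries. The treated libraries did not overlap the controls, but the ratio between the controls was larger than that within the treated pair. The authors' log2 fold was 2.07 with an FDR of 0.0853, so the region passed the deposited p limit and would not pass an FDR of 0.05. CBR3-AS1 overlaps CBR3 in the RefSeq table, and an accessible region cannot be assigned to either gene. For diMe-Doxo and Acla the nearest regions to CBR3 were 332.2 and 310.5 kb away.

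Other genes of anthracycline handling were taken from a list of 33, of which 28 had a span whose length matched the RefSeq table within 2 kb. A Doxo region was listed at 19 of the 28, a diMe-Doxo region at 15 and an Acla region at 14. The share among all genes, or among genes of like length, was not counted. These gene counts and those by role below are therefore a description only. They held 143 distinct regions, of which 106 (74.1%) were listed for Doxo alone, beside 29.5% of all regions, in and outside genes. Doxo regions outnumbered diMe-Doxo regions at 17 genes and were outnumbered at 3. One of these regions is also counted at ABCC1, through ABCC6.

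Among the topoisomerases and the enzymes that remove trapped topoisomerase, 4 of 5 had a Doxo region and 1 each had a diMe-Doxo or an Acla region. TOP3A, which resolves DNA crossovers, had 6 Doxo regions and 1 diMe-Doxo region. TOP3B, which acts on DNA and RNA, had 6 Doxo regions and 1 Acla region. TDP2, which frees the 5′ DNA end from trapped TOP2, had none.

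Other efflux transporters had a Doxo region at 7 of 8 genes, a diMe-Doxo region at 7 and an Acla region at 6, with 72, 10 and 7 regions. ABCC4, a pump of cyclic nucleotides and drugs, had 26 Doxo, 1 diMe-Doxo and 0 Acla regions. ABCC5, of the same family, had 14, 2 and 1, and the mitochondrial transporter ABCB8 had 12, 3 and 1. ABCC10, a related pump, had 8, 1 and 1, and MVP, the major vault protein, had 5, 1 and 1. ABCC2, the MRP2 pump, had none. Of 3 uptake carriers, SLC28A3 had none, while SLC22A16, known to import doxorubicin, had 2 Doxo, 2 diMe-Doxo and 3 Acla regions.

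Of 6 other carbonyl reductases, each drug's list had a region at 2, but not at the same 2 for every drug. AKR1C2, AKR1C4 and AKR7A2 had none with any drug. Among enzymes that reduce quinones, POR, the electron donor of the cytochrome P450 enzymes, had 19 Doxo, 1 diMe-Doxo and 1 Acla region. NOS3, the endothelial nitric oxide synthase, had 6, 3 and 3. XDH, xanthine dehydrogenase, had 3, 6 and 7, the ABCB1 order. GSTP1, a glutathione transferase, had none.

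**Figure D5:**
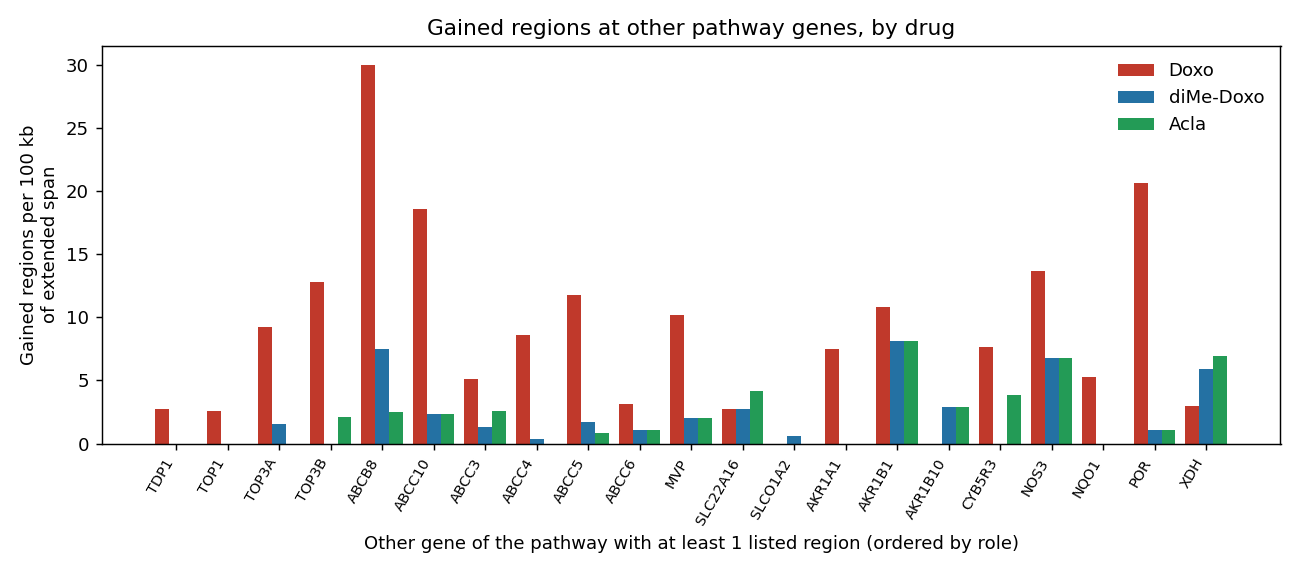
Gained regions per 100 kb of extended span (y axis) at the 21 other pathway genes with at least 1 listed region (x axis, ordered by role), for each drug. Doxo bars are the highest at most genes, and XDH is among the few where diMe-Doxo and Acla bars are higher.

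By the mean absolute difference of regions per 100 kb over the 3 lists, the pathway gene most like ABCB1 was XDH (0.69). The one most like ABCC1 was NQO1 (0.43), which had 2 regions, both in the Doxo list. TDP1 was nearest to CBR3 (0.12) and ABCC6 to TOP2B (0.36). These rest on 3 values per gene and on few regions.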

How the data were processed

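The submitters' processing notes name GRCh37 and DiffBind. Aligner, peak caller and normalization were likewise not given in the sources used here. Since the deposited lists have no header row, what each column holds, including the + and - marks taken as peak calls per library, was inferred from the values and from DiffBind's usual report. The signal deposited by the authors is reads per region times 1 factor per library. The log2 means and log2 fold, the p-value and the FDR of each region are also the authors'. Reads were recovered by dividing the signal by its step, which gave whole reads (to within 0.1) for 100% of values. In the diMe-Doxo and Acla treated libraries the lowest listed value is 9 to 16 steps, so the step there rests on the spacing of values and not on a value of 1 read, and reads in those libraries are less certain. Reads inside listed regions summed to 3534855 to 7266289 per treated library, and the full depth is unknown. Control reads were identical between lists at every shared region. Whether starts count from 0 or 1 is not stated.

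Regions of the 7 spans were taken at an overlap of at least 1 bp. Strands came from the RefSeq table, and for ABCC1 and CBR3 from general knowledge. Spans of the other pathway genes, in kb, were written from general knowledge of GRCh37 and kept where their length matched RefSeq. No GRCh37 annotation was used, so exon and intron positions were not analysed here. Regions of each gene were numbered along the chromosome. Those given in full were fixed by rule: the highest fold per gene, those within 1 kb of a start, those in all 3 lists, up to 3 per gene by Doxo FDR and those called between drugs. Some ABCB1 regions listed for 1 or 2 drugs were added after their values were seen. Other pathway genes were named where they had at least 5 regions in a list or none. SLC22A16 was added after its values were seen. The others enter the counts only. One further gene was taken off the list and is not reported here. The members and lists were chosen with earlier results of these data known.

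Doxo and diMe-Doxo were compared with edgeR's quasi-likelihood test (limit 0.05, Benjamini-Hochberg). The authors' factors were the offsets, scaled through the geometric mean of the 2 controls the lists share. The control factors were 1.44 and 1.39 in the Doxo list and 2.41 and 2.03 in the diMe-Doxo list. Their ratio thus differed between the lists, and scaling by 1 control alone was not tested. TMM, DESeq2, a minimum of 20 reads and leaving out each library were alternatives. On simulated data for this comparison (33140 regions), the test found 88% of 4-fold and 24% of 2-fold changes, and 2.61% of its calls were false. Only 100 regions per fold were changed, far fewer than the real test called. All regions had the same dispersion (0.0278) and the authors' factors were taken as true. The simulation therefore cannot measure the doubt about scaling. Versions were Python 3.11.15, numpy 2.4.6, pandas 2.3.3, matplotlib 3.10.9, R 4.3.3, edgeR 4.0.16 and DESeq2 1.42.0.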

Additional observations from a re-analysis of the deposited data

How the results depend on the processing

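The Doxo, diMe-Doxo and Acla totals of 24, 13 and 16 gene regions became 45, 24 and 25 with spans extended by 50 kb. Under stricter limits (FDR up to 0.01, log2 fold from 2) they became 12, 10 and 11, so the Doxo total was then close to the others. At those limits ABCC1 had 9 Doxo regions and ABCB1 had 2 Doxo, 9 diMe-Doxo and 10 Acla regions, while CBR3 had none, and other pathway genes with a region numbered 6 for diMe-Doxo and 5 for Acla. Without the extension the upstream TOP2B region dropped out. Using all 33 pathway genes, an alternative chosen after seeing the data, changed no pathway count by over 1.5 times. Among regions in both lists, those called lower with Doxo numbered 900, and 3508 with TMM, 1518 with DESeq2 and 507 with at least 20 reads in every library, and between 159 and 815 without 1 library. The number of gene regions called higher with Doxo, 2, became 1 with TMM and with DESeq2, and 1 to 2 without 1 library. The call that ended was that at 87303290-87304564 in ABCB1 (log2 difference 0.25 with TMM and 0.23 with DESeq2). Sign changes fell on regions that never passed the test: ABCB1 region 2 (-0.91 to 0.26 without 1 library, with 0.10 without diMe-Doxo library 1), region 4 (-0.43 to 0.15 without 1 library), region 11 (-0.28 with TMM, -0.31 with DESeq2, -1.10 to 0.69 without 1 library) and region 14 (-0.60 to 0.09 without 1 library). The cause of these changes was not tested. No paired analysis was possible because the labels give the libraries no replicate numbers. Low reads limit the test: 4 of the 8 gene regions had fewer than 20 reads in a library.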
